A study of Mus musculus with 6 samples.

Results

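Matrix metalloproteases (MMPs), their tissue inhibitors (TIMPs) and the urokinase gene Plau form a set of 9 invasion genes, which are followed here among the 56748 genes listed for each library. The members were chosen by symbol. They are the gelatinase genes Mmp9 and Mmp2, the stromelysin gene Mmp3, the collagenase gene Mmp13, the membrane-anchored Mmp14, the inhibitors Timp1, Timp2 and Timp3, and Plau. All 9 were found in GENCODE M21, and 8 reached 1 FPKM (fragments per kilobase of transcript, scaled for depth) in at least 3 of the 6 libraries and were tested. Timp3 did not.

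The cells are 4T1, a line from a mouse mammary carcinoma that is labelled wild type in all 6 libraries. The treated group has 3 libraries from cells given Au/MoS2/Bi2S3, which are particles, and then NIR (near-infrared) irradiation. The protocol says that cells grew for 24 h, had 125 µg/mL of particles overnight, were irradiated for 8 min and were washed after another 24 h. The control group has 3 libraries from cells labelled only as control. Both groups are labelled as collected at 48 h and as 1 batch, and the protocol text does not say whether control dishes had light alone or neither agent. The design text has RNA pooled from cells of 3 individuals. Whether the libraries of a group came from separate cultures is not stated, so p-values measure the spread between these libraries, which may be technical.

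MMPs are zinc proteases that are made as inactive precursors and cut collagens, other matrix proteins and cell surface proteins. TIMPs bind their active site and block it, and Timp2 protein also helps Mmp14 to activate Mmp2 at the cell surface. Urokinase turns plasminogen into plasmin, a protease that degrades fibrin and activates several MMP precursors. Metastatic mammary carcinoma cells such as 4T1 are known for secreting these enzymes.

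Reads at genes numbered 33200000 to 33800000 per treated library and 32600000 to 38100000 per control library, worked back from the FPKM. The values had been scaled so that the typical gene has the same level in every library. Column totals were 235760 to 241950 FPKM in treated libraries and 450410 to 532580 in control libraries. Controls differed more among themselves, with a median SD of 0.07 in treated and 0.27 in control libraries on the log2(FPKM + 1) scale. For 6 of the 8 tested members, and for 65.6% of all genes tested, the level in control 1 fell between those of control 2 and control 3. Of 8 epithelial markers listed for the line, Krt8 and Krt18 were abundant, at 345 to 359 and 272 to 295 FPKM in treated libraries and 468 to 493 and 755 to 973 in control libraries. Epcam was at 0.76 to 0.97 FPKM in treated and 4.4 to 5.7 FPKM in control libraries. Its log2 change was -1.66 on the log2(FPKM + 1) scale, and it was 5.57-fold lower between means. Lcn2 was at 1.06 FPKM or less in all libraries. Cdh1, Krt14, Krt7 and Cldn4 stayed under 1 FPKM in all 6 libraries, so the transcript of the defining epithelial cadherin was almost absent from cells labelled as 4T1. The summed level of the list was 618 to 651 FPKM in treated and 1239 to 1472 FPKM in control libraries.

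Transcripts of 2 gelatinase genes and of Plau were several-fold lower in treated cells, Mmp14 and Timp1 were lower by less as deposited, though other scalings turned the sign of Mmp14 and left Timp1 uncalled, and no member was called higher as deposited. By limma on log2(FPKM + 1), with Benjamini-Hochberg adjustment over all 11118 genes tested, 5 of the 8 tested members fell at an adjusted p under 0.05. Over all genes tested 28.3% were called lower and 27.9% higher, 56.1% in all. Lower calls were more frequent among abundant genes. With all tested genes cut into 10 bins by mean level, the members lay in bins 8, 9 and 10. In these bins 35.6%, 49.7% and 67.2% of genes were called lower, with median log2 changes of -0.27, -0.51 and -0.93. The count of members lower was not tested against these shares. The count of members higher was 0 by limma, also at an unadjusted p under 0.05, and 0 by limma's voom method on recovered reads. The median log2 change was -0.81 over the tested members and -0.015 over all genes tested. All treated libraries lay below all controls for 6 members, against 34.1% of all genes tested, and above all controls for 0 members, against 33.6%. The members Mmp13 and Timp2 overlapped. In bulk RNA, fewer cells of a type and less RNA per cell cannot be told apart.

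**Figure D1:**
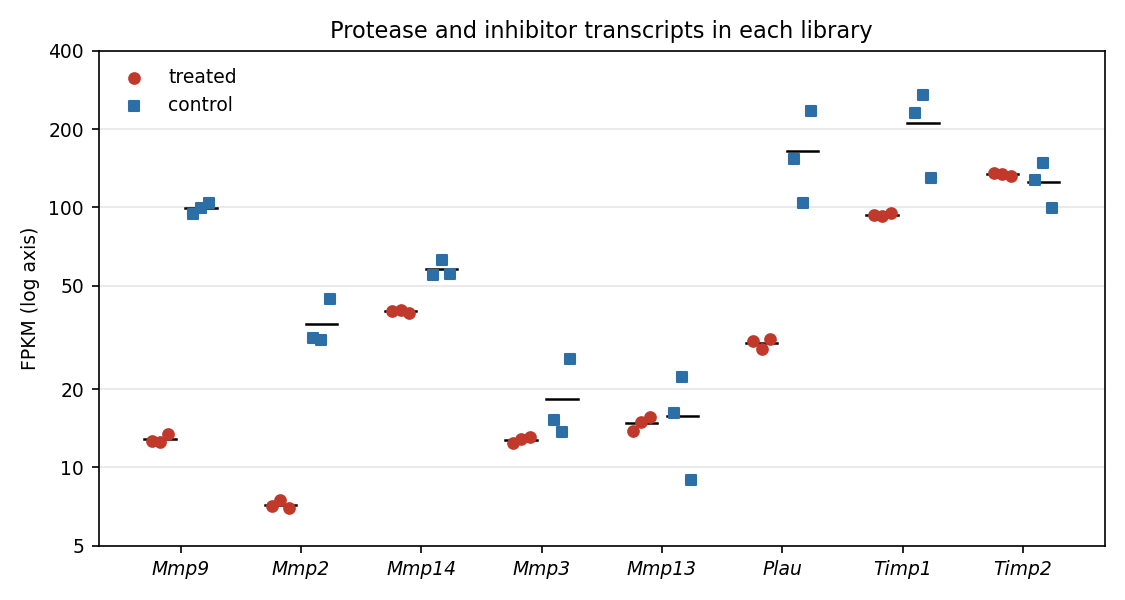
FPKM (log axis) of the 8 tested members in each library, treated (circles, left) beside control (squares, right), with black lines for group means (n = 3 each). Treated libraries lie close together for every member, and Mmp9, Mmp2 and Plau stand farthest below their controls. Timp3 is listed at 0 in all libraries and is not drawn.

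Mmp9 (chromosome 2, 164940780 to 164955850, plus strand, GRCm38) encodes gelatinase B, a secreted protease of basement membrane collagen. Its transcript stood at 12.6, 12.5 and 13.4 FPKM in treated libraries and at 94.1, 99.4 and 104 FPKM in control libraries. These values rest on 1953 to 2098 reads per treated library and 8648 to 11154 per control library. The groups did not overlap, and the gap was many times the spread within either one. Between group means Mmp9 was lower by 7.74-fold, a log2 change (treated over control) of -2.86 with an SE of 0.10 (limma adjusted p = 0.000136). Against each control alone, its log2 change was -2.78, -2.86 and -2.93. It had the largest fold change of the members, and only 0.396% of all genes tested had a lower one.

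Mmp2 (chromosome 8, 92827291 to 92853420, plus strand) encodes gelatinase A, the enzyme that Mmp14 and Timp2 proteins activate together. It was at 7.10, 7.49 and 6.99 FPKM in treated libraries and at 31.4, 30.9 and 44.4 FPKM in control libraries. Control 3 was the highest, and all treated libraries were far below the lowest control. The fold between means was 4.94-fold lower (log2 change -2.14 ± 0.16 SE, limma adjusted p = 0.000321).

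Plau (chromosome 14, 20836660 to 20843385, plus strand) encodes urokinase, the plasminogen activator of migrating cells. It was at 30.6, 28.6 and 31.1 FPKM in treated libraries and at 153, 104 and 235 FPKM in control libraries. The controls spread more than 2-fold, with control 2 lowest and control 3 highest, and still did not reach the treated values. Between means Plau was lower by 5.45-fold, a log2 change of -2.33 ± 0.29 SE (limma adjusted p = 0.00119). Against control 2 alone the log2 change was -1.76, and against control 3 alone -2.92.

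Mmp14 (chromosome 14, 54431612 to 54445364, plus strand) encodes the membrane-type protease that cleaves collagen at the cell surface. It was at 40.1, 40.2 and 39.1 FPKM in treated libraries and at 55.0, 62.5 and 55.5 FPKM in control libraries. The groups did not overlap, and the fold between means was 1.45-fold lower (log2 change -0.52 ± 0.11 SE, limma adjusted p = 0.00761). Its direction rested on how libraries were scaled to each other. Scaled to equal column totals of FPKM (named library size here), its log2 change was 0.46 and it was called higher. The change was 0.18 with quantile normalization and 0.17 with cyclic loess.

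Timp1 (chromosome X, 20870166 to 20874735, plus strand) encodes the inhibitor known to bind the Mmp9 precursor. It was at 93.1, 92.2 and 95.0 FPKM in treated libraries and at 231, 270.3 and 129.7 FPKM in control libraries. Timp1 fell 2.25-fold between means (log2 change -1.10 ± 0.28 SE, limma adjusted p = 0.0165), and control 3 lay closest to the treated libraries. The call was lost without control 1 (limma adjusted p = 0.0635) and without treated 1, 2 or 3 (0.0562, 0.0546 and 0.0545). Without treated 1, 2 or 3 its log2 change was -1.09, -1.09 and -1.11, and fewer of all genes tested were called. With library size, quantile or cyclic loess scaling the log2 change was -0.10, -0.14 and -0.075 and the gene was not called.

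Timp2 (chromosome 11, 118301069 to 118355740, minus strand) was at 135, 134 and 132 FPKM in treated libraries and at 128, 148 and 99.3 FPKM in control libraries. The groups overlapped, with treated libraries above control 1 and control 3 and below control 2 (log2 change 0.12 ± 0.17 SE, limma adjusted p = 0.584). Its log2 change was 1.11 by library size, 1.08 by quantile and 1.12 by cyclic loess scaling, and it was called higher under each of these. Timp3, the inhibitor that stays bound to the matrix, was listed at 0 in all 6 libraries. A count of 0 reads allows up to 0.00834 FPKM in any treated library and 0.0157 FPKM in any control library (3 reads, counting error only). Its exons overlap those of Syn3 on the opposite strand, and the limit would not hold if reads shared by both genes were left out of the counts, which was not tested.

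**Figure D2:**
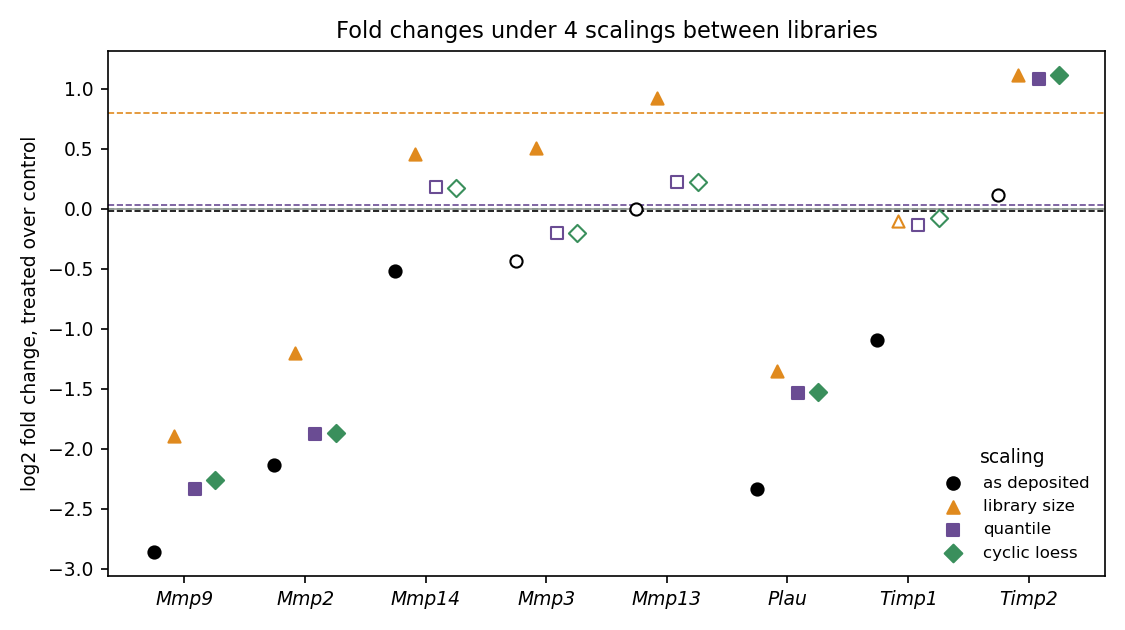
Log2 fold change, treated over control, of the tested members under 4 scalings between libraries (filled symbols, limma adjusted p under 0.05; open symbols, not called; dashed lines, median of all genes under each scaling). Mmp9, Mmp2 and Plau are lower under all 4, while Mmp14 and Timp2 move across or away from 0 with the scaling.

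Under library size scaling 7180 genes were called higher and 736 lower, 64.6% and 6.62% of all genes tested, against 3099 higher and 3141 lower as deposited. The median of all genes then stood at a log2 change of 0.80. Under this scaling the log2 changes of Mmp9, Plau and Mmp2, treated over control, were -1.89, -1.35 and -1.21, all far below that median. Under this scaling 3 members were called lower and 4 higher, namely Mmp3, Mmp13, Mmp14 and Timp2. Of these, Mmp3 and Mmp14 lay below the median of all genes, at 0.50 and 0.46, and Mmp13 and Timp2 above it, at 0.92 and 1.11.

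The median log2 change was lower for more abundant genes, and the members were abundant. With all tested genes cut into 10 bins by mean level, in the bin that holds Mmp9, the median log2 change was -0.51, and 6 of the 1112 genes there had a lower one than Mmp9. Mmp2 lay in a bin with a median of -0.27, where 16 of 1112 genes were lower. Plau lay in the most abundant bin, with a median of -0.93 and 67.2% of genes called lower, and 36 of 1112 genes were lower than Plau. In that same bin Timp1 had 41.9% of genes below it, Mmp14 70.7% and Timp2 90.4%. The part of level in the calls of Mmp14 and Timp1 was not tested.

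**Figure D3:**
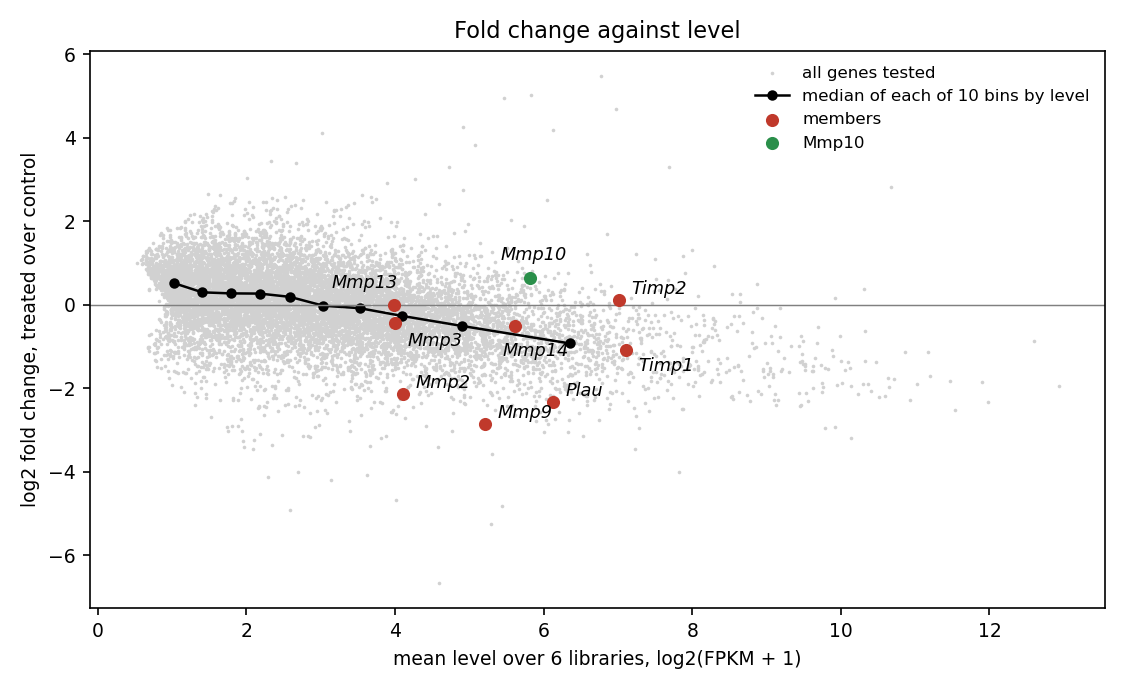
Log2 fold change (treated over control) against mean level in log2(FPKM + 1) for the 11118 genes tested (grey), with the median of each of 10 bins by level (black), the 8 tested members (red), and Mmp10 (green). Mmp9, Mmp2 and Plau lie far below the medians of their bins, while Mmp14 and Timp1 lie near them and Mmp10 above.

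Mmp3 and Mmp13 lie in a cluster of 10 MMP genes on chromosome 9 (7272514 to 7699585). Mmp3 (7445822 to 7455975) encodes stromelysin, which cuts proteoglycans and activates other MMP precursors. It was at 12.4, 12.85 and 13.1 FPKM in treated libraries and at 15.2, 13.7 and 26.1 FPKM in control libraries. Every treated library was below every control, but by little in 2 of the 3 controls, and the gene was not called (log2 change -0.44 ± 0.24 SE, limma adjusted p = 0.162). The log2 change was -0.17 without control 3 and 0.50 by library size.

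Mmp13 (7272514 to 7283331) encodes the main collagenase of mouse tissues. It was at 13.7, 14.9 and 15.7 FPKM in treated libraries and at 16.2, 22.2 and 8.94 FPKM in control libraries. Treated libraries lay within the span of the controls (log2 change -0.0060 ± 0.30 SE, limma adjusted p = 0.986). Its sign turned when control 1, control 2 or treated 1 was left out (log2 changes of 0.052, 0.27 and 0.042), and without control 3 the log2 change was -0.34.

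Mmp10, a stromelysin gene of the same cluster and not a member, was at 69.7, 67.2 and 70.4 FPKM in treated libraries and at 45.5, 54.1 and 35.3 FPKM in control libraries. It rose, with a log2 change of 0.63 ± 0.17 SE (limma adjusted p = 0.0213), and 1.61, 1.38 and 1.37 under library size, quantile and cyclic loess scaling. The call was lost without control 1 (0.0608) and without treated 1, 2 or 3 (0.0739, 0.0649 and 0.0759, each a limma adjusted p). Mmp12, the macrophage elastase gene of the cluster, chosen after its values were seen, was at 1.68 to 2.03 FPKM in treated and 0.0472 to 0.584 FPKM in control libraries. The other 6 genes of the cluster did not reach the level for testing.

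Promoter sequences of the stromelysin and collagenase genes of the cluster are shown because none of Mmp3, Mmp10 and Mmp13 was called lower, and that of Mmp14, which was, is shown beside them. RefSeq promoters on GRCm38.p6 (250 bases before to 50 after the annotated start) were matched for 6 of the 9 members and for Mmp10. Mmp9, Mmp2 and Plau, which were called lower under every scaling, were not matched. The windows therefore cannot set such genes beside those not called lower. Capitals mark the letters TGANTCA, the AP-1 motif, which reads the same on both strands, and TATAAA, the TATA box, searched on the gene's strand. The windows are chr9:7445572-7445871 for Mmp3, chr9:7502092-7502391 for Mmp10, chr9:7272264-7272563 for Mmp13 and chr14:54431348-54431647 for Mmp14, all on the plus strand.
Mmp3: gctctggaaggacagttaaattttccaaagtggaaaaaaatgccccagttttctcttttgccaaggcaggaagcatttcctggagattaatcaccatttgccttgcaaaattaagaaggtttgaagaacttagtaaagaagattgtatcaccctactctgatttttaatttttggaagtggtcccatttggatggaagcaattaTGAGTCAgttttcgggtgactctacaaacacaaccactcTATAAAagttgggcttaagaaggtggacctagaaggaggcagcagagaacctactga
Mmp10: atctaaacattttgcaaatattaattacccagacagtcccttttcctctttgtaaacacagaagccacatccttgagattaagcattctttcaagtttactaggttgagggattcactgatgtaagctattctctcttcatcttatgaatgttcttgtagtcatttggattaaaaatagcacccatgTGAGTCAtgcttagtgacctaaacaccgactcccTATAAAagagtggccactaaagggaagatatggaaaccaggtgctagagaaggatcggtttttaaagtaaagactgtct
Mmp13: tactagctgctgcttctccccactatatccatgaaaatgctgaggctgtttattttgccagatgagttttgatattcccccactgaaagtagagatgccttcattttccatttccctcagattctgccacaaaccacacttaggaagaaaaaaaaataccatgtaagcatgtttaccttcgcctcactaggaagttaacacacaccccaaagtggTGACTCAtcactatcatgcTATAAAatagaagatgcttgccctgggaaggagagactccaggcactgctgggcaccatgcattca
Mmp14: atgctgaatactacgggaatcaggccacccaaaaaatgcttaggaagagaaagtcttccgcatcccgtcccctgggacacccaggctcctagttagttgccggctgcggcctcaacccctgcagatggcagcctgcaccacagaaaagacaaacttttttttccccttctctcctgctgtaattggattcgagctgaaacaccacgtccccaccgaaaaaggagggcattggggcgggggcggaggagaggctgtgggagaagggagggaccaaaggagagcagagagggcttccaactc

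The AP-1 letters begin 46 bases before the annotated start in Mmp3, 63 bases in Mmp10 and 35 bases in Mmp13, and each is followed by TATA box letters. No overlap between these motifs occurs in the windows. Of 32851 RefSeq promoters of this length, 7.81% hold the AP-1 letters, 8.32% hold TATAAA and 0.995% hold both. The windows of Mmp14, Timp1, Timp2 and Timp3 hold neither. These 4 hold GGGCGG on either strand, the Sp1 motif, as do 35.7% of all windows. A match describes letters in the window, not binding.

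The make-up of MMP transcripts within a library is not changed by a single scaling factor per library, such as library size, though quantile and cyclic loess normalization would change it. Shares are given as deposited. Mmp9 made up 6.99 ± 0.19% of the summed FPKM of 23 MMP genes in treated libraries and 33.4 ± 1.48% in control libraries (SD, n = 3 each). Mmp2 made up 3.92 ± 0.18% in treated and 12.0 ± 2.58% in control libraries. Mmp10 made up 37.7 ± 0.71% in treated and 15.1 ± 2.93% in control libraries, so the leading MMP transcript was Mmp10 in every treated library and Mmp9 in every control library. Mmp13 held 7.55 to 8.43% in treated and 2.99 to 7.15% in control libraries. Shares of Mmp14 were close, at 21.0 to 22.1% in treated and 18.6 to 20.1% in control libraries, without overlap. Mmp3 shares overlapped, at 6.79 to 7.06% in treated and 4.41 to 8.75% in control libraries.

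The 10 genes of the chromosome 9 cluster, a grouping made after the values were seen, held 54.0 ± 0.64% of the summed MMP FPKM in treated and 26.7 ± 2.83% in control libraries (SD, n = 3 each). Mmp10 alone held 37.7% in treated and 15.1% in control libraries. The summed MMP FPKM was 182 to 185.9 in treated and 282.6 to 311.1 in control libraries as deposited. Genes of the cluster summed to 97.4 to 101.8 FPKM in treated and 70.5 to 90.7 in control libraries. MMP genes outside it, Mmp9 and Mmp2 among them, summed to 83.9 to 84.7 FPKM in treated and 205.5 to 228.2 in control libraries. Timp1 made up 41.1 ± 0.60% of Timp1 plus Timp2 in treated and 61.9 ± 4.55% in control libraries, without overlap. Timp2 was therefore the more abundant inhibitor in every treated library and Timp1 in every control library.

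**Figure D4:**
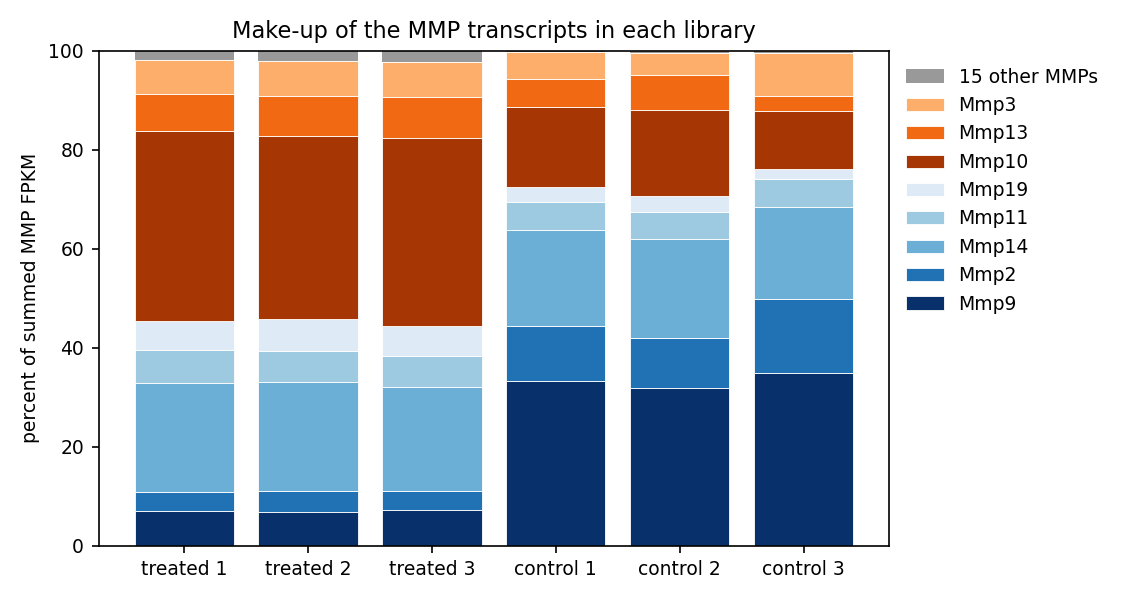
Percent of the summed FPKM of 23 MMP genes held by each gene in each library (stacked bars, blue for genes outside and orange to brown for genes in the chromosome 9 cluster, grey for 15 scarce MMP genes). Mmp10 is the largest part of each treated library, at 36.9 to 38.3%, and Mmp9 the largest part of each control library, at 32.0 to 34.9%.

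In order of level per length, treated cells had Timp2 at 134 FPKM, then Timp1, Mmp14, Plau, Mmp13, Mmp9, Mmp3 and Mmp2 at 7.19 FPKM. Neighbours in this order were apart in all libraries except Mmp9 and Mmp3, whose ranges overlapped. Control cells had Timp1 at 210.3 FPKM, then Plau, Timp2, Mmp9, Mmp14, Mmp2, Mmp3 and Mmp13 at 15.8 FPKM. There Timp1 overlapped Plau, Plau overlapped Timp2, Timp2 overlapped Mmp9 and Mmp3 overlapped Mmp13, while the other neighbours were apart.

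Mmp9 and Timp1 were also set against each other within each library. The ratio of Mmp9 to Timp1 FPKM was 0.135, 0.135 and 0.141 in treated libraries and 0.407, 0.368 and 0.804 in control libraries. The log2 ratio differed by -1.85, and the exact two-sided permutation test gave p = 0.1, the smallest that 3 against 3 allows. Every treated library lay below every control.

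Inhibitors outside the 9 members were followed too. Serpine2, which inhibits thrombin and urokinase, fell (7.17 ± 0.29 FPKM in treated and 12.35 ± 1.71 in control libraries, limma adjusted p = 0.00434), with a log2 change of -0.70 as deposited and 0.20 by library size. Of 8 inhibitors followed 2 were tested, 1 rose and 1 fell, and over all genes tested 27.9% rose and 28.3% fell. The median of these 2 was 0.60, beside -0.015 for all genes tested. The one that rose was Serpinb2, an inhibitor of urokinase, at 3.80 to 4.73 FPKM in treated and 0.109 to 0.604 FPKM in control libraries. It passed the filter through the treated group alone, which favoured a higher call beforehand. Serpinb2 lay in bin 2 by level, with a median of 0.30 and 41.5% of genes called higher. The 6 that were not tested, Timp4 and Reck among them, were at 0.242 FPKM or less.

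Of 18 other MMP genes 5 were tested, 3 rose, 1 fell and 1 was not called. The median was 0.465, beside -0.015 for all genes tested, of which 27.9% rose and 28.3% fell. Those that rose were Mmp10, Mmp12 and Mmp28. Mmp12 and Mmp28 reached 1 FPKM only in treated libraries and passed the filter through that group alone, which favoured a higher call beforehand. Mmp28 was at 1.03 to 1.33 FPKM in treated and 0.496 to 0.659 FPKM in control libraries. The log2 changes of Mmp12 and Mmp28 were 1.19 and 0.435. Both lay in the least abundant of the 10 bins, with a median of 0.52 and 54.5% of genes called higher. Mmp11, or stromelysin 3, fell to 11.8 ± 0.32 FPKM in treated libraries, against 16.65 ± 0.57 in control libraries (limma adjusted p = 0.00704), with a log2 change of -0.47 as deposited and 0.47 by library size, where it was called higher (0.00816). With cyclic loess it was at -0.26 and not called (0.0625). The 13 that were not tested were at 0.529 FPKM or less in every library.

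In the plasminogen system 6 of 10 genes were tested, 0 rose, 2 fell and 4 were not called by limma. The median was -0.31, beside -0.015 for all genes tested, of which 27.9% rose and 28.3% fell. By level, Anxa2, Lrp1 and S100a10 lay in bin 10, with a median of -0.93. Plat and Plaur lay in bin 9, with a median of -0.51, and Plgrkt in bin 4, with 0.27. At an unadjusted p under 0.05, 0 rose and 3 fell, and voom also called 0 higher and 3 lower. Anxa2, which helps to hold plasminogen at the cell surface, was at 211 ± 2.58 FPKM in treated and 303.5 ± 6.95 in control libraries, a fall of 0.52 on the log2 scale as deposited (limma adjusted p = 0.0103). It turned to 0.48, 0.55 and 0.69 with library size, quantile and cyclic loess scaling, and its call was lost without treated 1, 2 or 3 (limma adjusted p = 0.0588, 0.0537 and 0.0559). Lrp1, an endocytic receptor that clears proteases from the cell surface, fell (43.4 ± 3.71 FPKM in treated and 77.7 ± 19.5 in control libraries, limma adjusted p = 0.0141), with a log2 change of -0.80 as deposited and 0.18, -0.029 and -0.051 under the same 3 scalings, without a call. Its call was lost without treated 2 or treated 3 (0.0542 and 0.0589). Plaur, the urokinase receptor, was at 34.3 to 37.2 FPKM in treated and 42.0 to 55.2 FPKM in control libraries and was not called (limma adjusted p = 0.0557). Plat, the tissue-type activator, was at 40.3 to 42.5 FPKM in treated and 27.3 to 42.8 FPKM in control libraries, and the groups overlapped.

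Of genes of MMP activators and partners, 4 of 6 tested were called lower as deposited, 1 higher and 1 not (median -0.87 beside -0.015 for all genes tested). Bsg, Cd44, Ctsb, Ctsd and Ctsl lay in the most abundant of the 10 bins by level. The median there was -0.93, near that of the list, and 67.2% of genes were called lower. Of Bsg, Ctsd and Ctsb, among the 4 called lower, only Ctsd kept its sign under all 3 other scalings. Furin, which removes the propeptide of Mmp14, was the one that rose, at 18.7, 17.4 and 16.7 FPKM in treated libraries and 5.62, 6.82 and 7.02 FPKM in control libraries (log2 change 1.32 ± 0.12 SE, limma adjusted p = 0.000469). Bsg, or EMMPRIN, a surface protein known to induce MMPs, was 2.67-fold lower as deposited, but its log2 change of -1.41 became 0.036 and 0.11 with quantile and cyclic loess scaling. By library size it was -0.41 and still called lower (limma adjusted p = 0.0375). The lysosomal proteases Ctsd and Ctsb fell by 1.28 and 0.84 on the log2 scale as deposited. Under library size, quantile and cyclic loess scaling Ctsd was at -0.28, -0.18 and -0.09 and not called, and Ctsb turned to 0.16, 0.27 and 0.41.

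Among ADAM and ADAMTS proteases, relatives of the MMPs, 7 of 11 were tested, 1 rose, 2 fell and 4 were not called. The median was -0.13, beside -0.015 for all genes tested, of which 27.9% rose and 28.3% fell. Adam10, a sheddase of cell surface proteins, rose to 38.0, 39.4 and 40.7 FPKM in treated libraries, against 12.7, 15.6 and 8.36 FPKM in control libraries (log2 change 1.65 ± 0.22 SE, limma adjusted p = 0.00145). Adamts4, an aggrecanase, fell by 0.45 on the log2 scale as deposited (limma adjusted p = 0.0208), and stood at 0.51, 0.017 and 0.020 with library size, quantile and cyclic loess scaling. Its call was lost without treated 1, 2 or 3 (limma adjusted p = 0.0504, 0.0837 and 0.0941). Adam15 fell to 18.5 ± 0.38 FPKM in treated libraries, against 40.2 ± 19.7 in control libraries (limma adjusted p = 0.0461). Its call was lost without control 1 (0.106) and without treated 1, 2 or 3 (0.114, 0.113 and 0.109), and without control 3 the log2 change of -0.97 became -0.61. With library size, quantile and cyclic loess scaling it was -0.0080, -0.50 and -0.50 and not called, and without the filter its adjusted p was 0.103.

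Genes of AP-1, ETS and NF-kB factors, families known to act on MMP and Plau promoters, split. Of 14 tested 6 rose, 3 fell and 5 were not called. The median was 0.12, beside -0.015 for all genes tested, of which 27.9% rose and 28.3% fell. Fos, an AP-1 subunit, was at 5.37, 5.57 and 5.42 FPKM in treated libraries and at 23.2, 27.2 and 16.5 FPKM in control libraries (log2 change -1.82 ± 0.19 SE, limma adjusted p = 0.000668). Jun, its usual partner, fell by 1.24 on the log2 scale (limma adjusted p = 0.00102), and was not called by library size, at -0.27. Fosl1, which encodes the AP-1 subunit FRA1, was at 11.2, 10.4 and 9.70 FPKM in treated libraries and at 1.56, 2.37 and 0.420 FPKM in control libraries, on 20 to 153 reads per control library. It rose, with a log2 change of 2.31 ± 0.31 SE (limma adjusted p = 0.00161), and was 7.20-fold higher between means. Ets1, an ETS factor of invasive cells, rose to 7.96 ± 0.04 FPKM in treated libraries, against 2.99 ± 0.40 in control libraries (log2 change 1.17 ± 0.11 SE, limma adjusted p = 0.000529). Fos stayed lower, and Fosl1 and Ets1 higher, under all 3 other scalings.

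**Figure D5:**
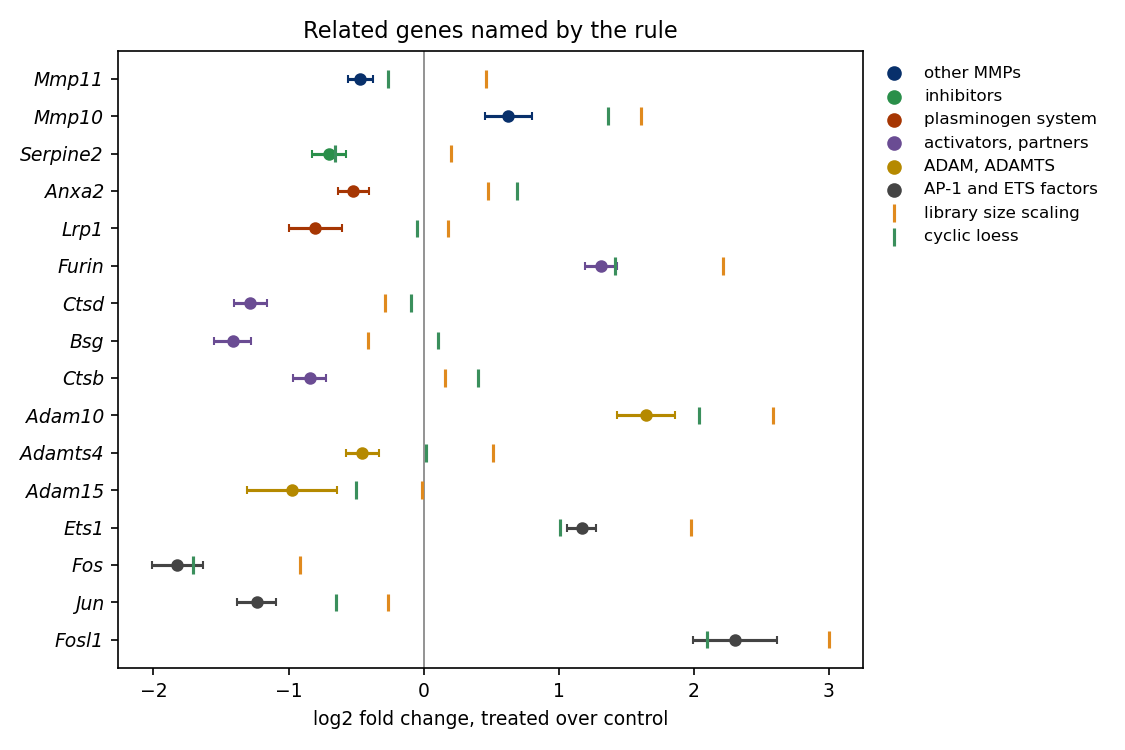
Log2 fold change, treated over control, with its SE as deposited (dots and bars, coloured by list) for 16 related genes named by rule, and the value under library size (orange ticks) and cyclic loess scaling (green ticks). Furin, Adam10, Ets1, Fosl1 and Mmp10 stay above 0 under all, and Fos, Jun, Ctsd and Adam15 stay below 0. Anxa2, Ctsb and Adamts4 change sides under both other scalings. Mmp11, Serpine2 and Lrp1 do so under library size only, and Bsg under cyclic loess only.

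Over the 69 related genes followed 40 were tested, 12 rose, 13 fell and 15 were not called, with a median of -0.086. Of all genes tested 27.9% rose and 28.3% fell, and the counts of related genes were not tested against these shares. Among the genes whose levels followed Mmp9 most closely over the 6 libraries, of 5900 compared, were Ncstn and Rpl7, with Pearson r of 0.9995 and 0.9991. The libraries form separate treated and control groups that set these values, and no test was made of them.

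Markers of cells that are known to make these proteases were examined in the same libraries. Of 8 neutrophil markers 7 were under 1 FPKM in every library, and S100a9, Elane and Retnlg were at 0. The summed level of the list was 2.03 to 2.58 FPKM in treated and 2.04 to 6.16 FPKM in control libraries. Of 8 macrophage markers 6 were under 1 FPKM, with Adgre1 and Fcgr1 at 0, and the sum, nearly all of it Cd68, was 247 to 264 FPKM in treated and 81.8 to 447 FPKM in control libraries. Of 8 endothelial markers 7 were under 1 FPKM, with sums of 1.88 to 2.49 FPKM in treated and 1.28 to 1.67 FPKM in control libraries. Of 8 fibroblast markers Col1a1, Col3a1, Pdgfra and Pdgfrb reached 1 FPKM in a library, and Dcn, Lum, Thy1 and Col1a2 were under it in all. The fibroblast sum, nearly all of it the 2 collagens, was 51.9 to 55.1 FPKM in treated and 204 to 1168 FPKM in control libraries. Control 3 was highest for these collagens and for Mmp9, Plau, Mmp2 and Mmp3. It was the lowest control for Timp1, Timp2 and Mmp13, and Mmp14 was highest in control 2. The part of the marker genes in the member results was not tested.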

How the data were processed

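RNA was measured in 3 treated and 3 control libraries. The authors deposited 1 FPKM value per Ensembl gene and library, per the file headers. Per the labels' protocols, poly-T selected RNA was sequenced as paired reads. For aligner, counter, build and strand setting, nothing is given in the sources used. Symbols, coordinates and exon lengths were looked up in GENCODE M21 (GRCm38), possibly another annotation than theirs, and 52125 of 56748 identifiers had a symbol there. The exons of Timp3 overlap those of Syn3 on the opposite strand, and no other member overlaps another gene's exons.

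The deposited FPKM had equal median-of-ratios factors in all 6 libraries, so fold changes are relative to the typical gene. Low values were whole multiples of what 1 read is worth, within 0.02 of a read for 92.5% to 93.4% of values under 200 reads, which gave the reads behind each value. The labels mention no molecular identifiers to mark PCR copies, so limits from reads cover counting error only.

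Groups were tested on log2(FPKM + 1) by limma 3.58.1 (R 4.3.3) with its trend option, where at least 3 of 6 libraries reached 1 FPKM, with Benjamini-Hochberg adjustment over all of them and group as the only term. This scale understates the change of low genes, so folds between mean FPKM are also given for some genes. Ratios were tested with SciPy 1.17.1. Replicates of a group differed by more than sampling noise. Alternatives were the pseudocount, the filter, 3 other scalings, voom on recovered reads, a replicate block and leaving out each library, with the tested genes kept.

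The members and gene lists were chosen with earlier results of these data known. Related genes were named where they were called, with groups apart and a mean of at least 5 FPKM in either group, up to 4 per list by smallest p. The 3 genes most like Mmp9 were the named genes, tested and with a mean of at least 5 FPKM, with the highest Pearson r on log2(FPKM + 1). Some results that these rules select are not reported here. Any other gene named was chosen after its values were seen.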

Additional observations from a re-analysis of the deposited data

How the results depend on the processing

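Mmp9, Mmp2 and Plau kept their direction and their call under every alternative run, with log2 changes of -2.95 to -1.89, -2.28 to -1.21 and -2.62 to -1.35. The count of members lower was 5 as deposited and 3 with library size, quantile or cyclic loess scaling, and that of members higher was 0, and 4, 1 and 1 under these. Related genes higher numbered 12, and 28 by library size, and related genes lower 13, and 3, 8 and 5 under the same 3 scalings. All genes higher numbered 7180 and lower 736 by library size. Under library size, quantile and cyclic loess scaling, Mmp14 reversed to 0.46, 0.18 and 0.17, Mmp13 to 0.92, 0.22 and 0.22, Timp1 weakened to -0.10, -0.14 and -0.075, and Timp2 strengthened to 1.11, 1.08 and 1.12. By library size Mmp3 reversed to 0.50, Mmp11 to 0.47, Serpine2 to 0.20, Anxa2 to 0.48, Lrp1 to 0.18, Ctsb to 0.16 and Adamts4 to 0.51. With quantile and cyclic loess scaling Anxa2 reversed to 0.55 and 0.69, Bsg to 0.036 and 0.11, Ctsb to 0.27 and 0.41, and Adamts4 to 0.017 and 0.020. The cause was not tested.

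Leaving out 1 library, log2 changes ranged from -1.41 to -0.88 for Timp1, -0.61 to -0.17 for Mmp3, -0.34 to 0.27 for Mmp13 and -0.038 to 0.25 for Timp2. The log2 ratio difference ranged from -2.06 to -1.50 for Mmp9 to Timp1. Without treated 1, 2 or 3, 2279 to 2324 genes were called higher and 2140 to 2230 lower, against 3099 and 3141 with all libraries. Without control 1 these counts were 2561 and 2425. Without control 2 they were 3588 and 3635, and without control 3 they were 3634 and 3778. Deviations of same-numbered libraries from their group means had correlations of -0.05, -0.11 and -0.14 over genes. Differently numbered pairs had -0.013 to 0.129. Deviations within a group of 3 are tied to each other, so these values cannot decide whether the numbers carry a pairing. With the replicate block 2618 genes were higher and 2669 lower, 5 members were lower and 0 higher, and Mmp14 had a log2 change of -0.52 (limma adjusted p = 0.047). Calls of 4 named related genes were lost under it, Mmp10 and Mmp11 (0.0521 each), Anxa2 (0.0691) and Adamts4 (0.0826). Every member value above 0 rests on 560 reads or more.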
